A study of Mus musculus with 44 samples.

Results

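The genes described are 37 genes of mitosis, the step in which a cell separates its copied chromosomes and divides. They were chosen by gene symbol and not by a cutoff on measured values, though with earlier results of these data known. All 37 were found in both deposited tables, which hold 24244 gene symbols together. RNA sequencing had been carried out on wild-type ovarian follicles from mice of the outbred CD-1 stock, in 2 windows of exposure to PFNA (perfluorononanoic acid, a long-chain perfluoroalkyl acid). In the window of gonadotropin-dependent follicle maturation, 11 control libraries labelled DMSO were compared with 10 libraries labelled PFNA. In the window of ovulation induced by hCG (human chorionic gonadotropin, a hormone that acts on the receptor of luteinising hormone), 12 control libraries labelled hCG were compared with 11 libraries labelled hCG+PFNA, so that hCG is common to both ovulation groups. The dose, the length of exposure, the age of the mice and the number of animals are not given in the labels, nor do the labels say whether libraries came from separate mice or cultures. P-values therefore measure the spread between libraries, which may in part be technical.

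An ovarian follicle holds an oocyte arrested in meiosis, surrounded by granulosa cells, with theca cells outside them. Granulosa cells proliferate under follicle-stimulating hormone while the follicle grows, and they leave the cell cycle after the ovulatory surge of luteinising hormone. In a proliferating cell most mitosis genes are held silent in G0 and G1 and are transcribed together in G2 and M, through the DREAM complex, MYBL2 and FOXM1, which act at CHR elements (the letters TTTGAA or TTCGAA) and at CCAAT boxes bound by NF-Y. Oocytes are a further source of such transcripts, because they store cyclin B1 and spindle checkpoint messages for the meiotic divisions.

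The start regions of the members that the results turn on are shown first, because most of the members, though not all, hold letters of these elements. RefSeq sequences of 300 bases (250 before the annotated start and 50 from it on, build GRCm38.p6) matched 33 of the 37 members by symbol, in 35 windows, and Ccna2, Aurkb, Tpx2 and Kif20a had no entry. The lines below run 5′ to 3′ on the strand of the gene, and capitals mark the CHR letters and CCAAT, each searched on both strands, so that a match on the other strand reads as its reverse complement. Ube2c (chr2:164769679-164769978, plus strand) had the largest fall in the maturation window on the scale of the test, Ccnb2 (chr9:70421505-70421804, minus strand) the largest rise in the ovulation window, Cdk1 (chr10:69352863-69353162, minus strand) fell in the former window and did not pass the test in the latter, and Mad2l1 (chr6:66534971-66535270, plus strand) had neither motif although it was called in both windows.
Ube2c: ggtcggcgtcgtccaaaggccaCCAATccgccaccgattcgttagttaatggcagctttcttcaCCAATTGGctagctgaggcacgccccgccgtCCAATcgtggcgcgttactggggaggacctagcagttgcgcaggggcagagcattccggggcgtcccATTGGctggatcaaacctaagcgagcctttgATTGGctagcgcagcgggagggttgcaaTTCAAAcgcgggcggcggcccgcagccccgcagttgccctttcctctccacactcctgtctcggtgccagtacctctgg
Ccnb2: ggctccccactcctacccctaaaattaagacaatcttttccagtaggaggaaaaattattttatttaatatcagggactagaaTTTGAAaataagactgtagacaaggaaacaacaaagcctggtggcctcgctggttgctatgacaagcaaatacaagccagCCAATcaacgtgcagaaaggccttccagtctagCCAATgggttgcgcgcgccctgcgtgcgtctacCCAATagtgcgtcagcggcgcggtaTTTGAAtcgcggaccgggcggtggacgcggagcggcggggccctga
Cdk1: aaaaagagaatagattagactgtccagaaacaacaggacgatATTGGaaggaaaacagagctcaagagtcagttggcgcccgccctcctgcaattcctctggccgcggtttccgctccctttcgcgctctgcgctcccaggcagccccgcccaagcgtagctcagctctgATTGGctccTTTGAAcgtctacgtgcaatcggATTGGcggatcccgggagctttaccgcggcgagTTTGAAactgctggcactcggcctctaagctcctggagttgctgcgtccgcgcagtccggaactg
Mad2l1: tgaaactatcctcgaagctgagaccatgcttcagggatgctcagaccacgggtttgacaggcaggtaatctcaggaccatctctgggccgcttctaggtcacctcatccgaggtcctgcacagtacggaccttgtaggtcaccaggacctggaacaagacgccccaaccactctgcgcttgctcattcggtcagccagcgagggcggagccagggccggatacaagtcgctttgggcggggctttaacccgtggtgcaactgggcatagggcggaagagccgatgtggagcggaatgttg
The Ube2c window held 1 CHR match and 6 CCAAT matches, the Ccnb2 window 2 and 3, and the Cdk1 window 2 and 3. For Mad2l1 the start in the maturation table lies 169 bases downstream of the RefSeq start, so its window covers another stretch than the one next to the start used by the authors.

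Among the 33 members with a RefSeq start region, 27 (81.8%) held TTTGAA or TTCGAA on either strand, compared with 19.2% of all 32851 windows of the same length in the RefSeq table. CCAAT on either strand was found in 25 members (75.8%), against 37.4% of all windows. Both kinds of motif were present together in 23 members (69.7%), against 7.52% of all windows, and 18 members (54.5%) had at least 2 CCAAT matches, against 11.7%. The 6 members with neither TTTGAA nor TTCGAA in the window were Birc5, Ccnb1, Cenpe, Mad2l1, Nuf2 and Nusap1. These shares describe the letters in the windows and are not evidence of a bound factor.

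Values of the maturation window are TPM (a level scaled to gene length and to a fixed total per library), and the sequencing depth behind them is unknown. Values of the ovulation window are estimated counts, summing to 11.96 to 16.05 per control library and 10.6 to 19.5 per PFNA library in units of 1000000. They are shown as CPM, counts per 1000000 of a library size adjusted by TMM, a method that scales libraries to each other. Transcripts of the granulosa cell gene Inha had medians of 34768 TPM in maturation controls and 7329.5 CPM in ovulation controls, the oocyte gene Gdf9 had 40.7 TPM and 22.6 CPM, and the leukocyte gene Ptprc had 0.0453 TPM and 0.738 CPM. Libraries that stand apart from their group are PFNA replicates 1, 2 and 10 of the maturation window and PFNA replicate 5 of the ovulation window, and the counts of members called are given with and without them.

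In the maturation window all 37 mitosis genes fell with PFNA (limma on log2(TPM + 1), Benjamini-Hochberg adjusted p from 5.0e-06 to 0.00049). Of the 13712 genes tested, 16.1% were called lower and 13.3% higher. The median log2 fold change of the members was -1.63, with a range from -2.11 for Ube2c to -0.81 for Kif20b, while the median of all genes tested was 0.02. Their TPM summed to 1040 to 1736 in control libraries (median 1353) and to 228 to 1171 in PFNA libraries (median 317). In whole follicles, fewer dividing cells and less mitotic RNA per cell cannot be told apart.

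**Figure D1:**
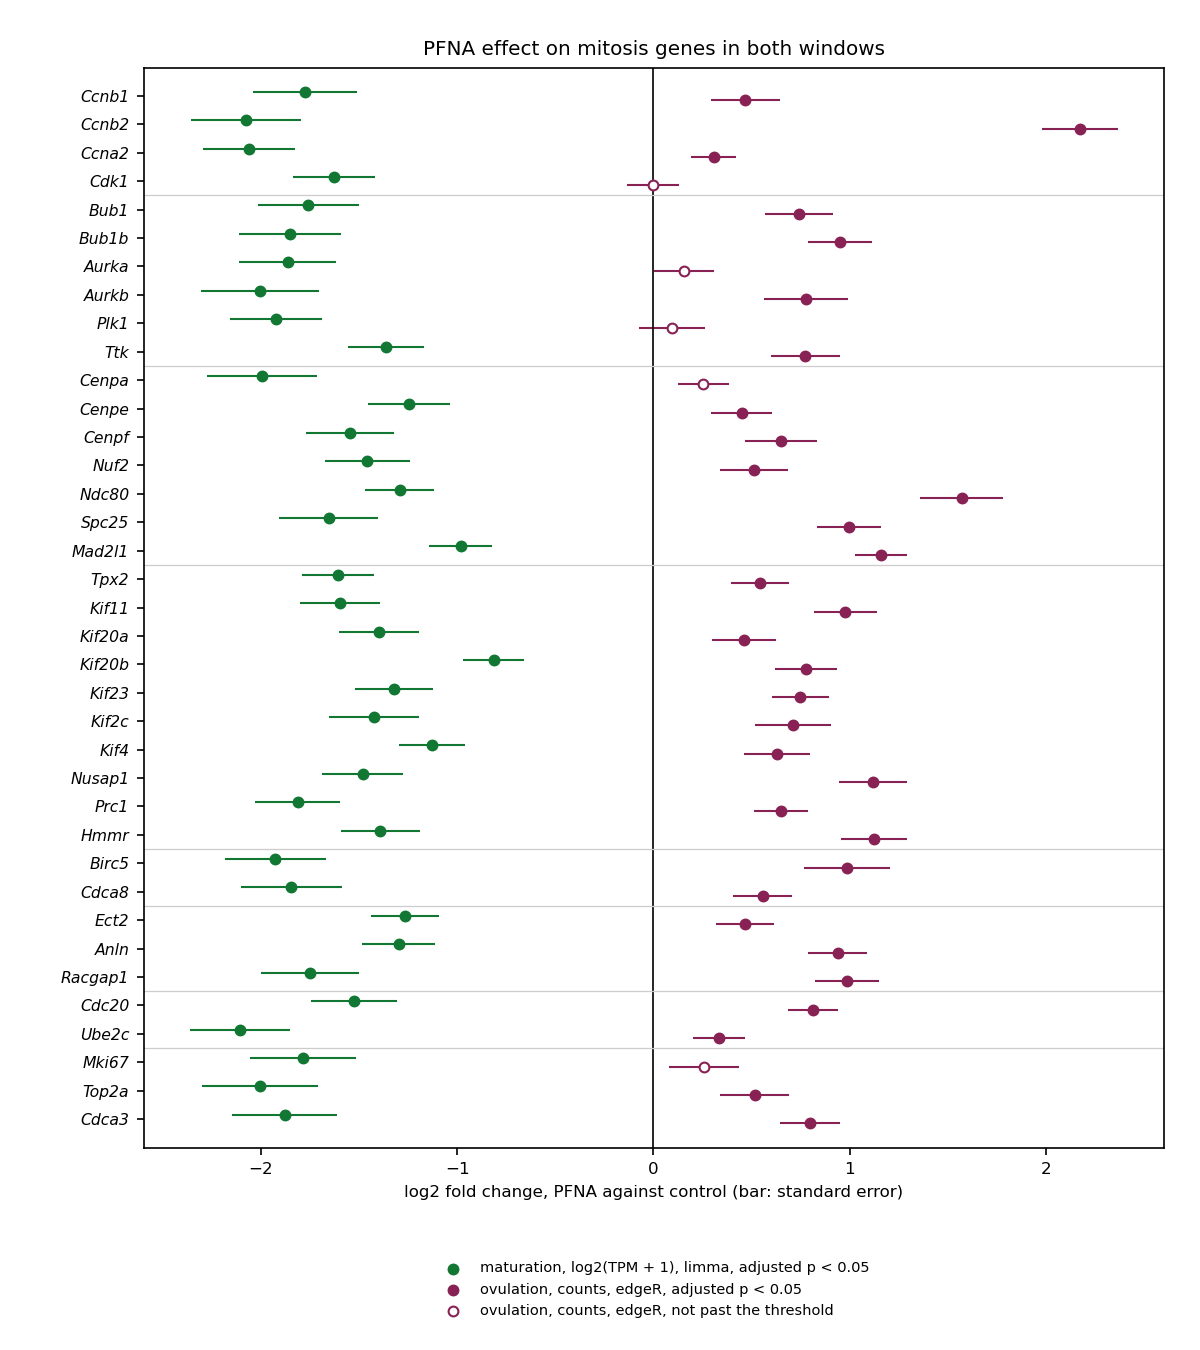
Log2 fold change of PFNA against control (x axis, with its standard error) for each of the 37 mitosis genes (y axis, grouped by role with grey lines between roles) in the maturation window (green, limma on log2(TPM + 1), 11 control and 10 PFNA libraries) and the ovulation window (purple, edgeR on counts, 12 and 11 libraries). All 37 green points lie below 0 and are filled (adjusted p under 0.05), and 32 purple points lie above 0 and are filled, with 5 open points that did not pass.

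All 3 mitotic cyclins and their kinase fell. Ccna2, the A-type cyclin of S phase and G2, lay at 103 to 151 TPM in controls (median 122) and at 14.2 to 96.5 TPM with PFNA (median 25.0), so that no PFNA library reached the controls. Ccnb2, a B-type cyclin, lay at 35.6 to 69.3 TPM (median 48.0) and at 5.56 to 39.4 TPM (median 9.24), and 9 of 10 PFNA libraries were below every control. The log2 fold changes were -2.06 ± 0.23 (SE) for Ccna2 and -2.07 ± 0.28 for Ccnb2, with adjusted p of 5.0e-06 and 2.0e-05 (limma). Ccnb1, the B-type cyclin that drives entry into mitosis and into meiosis of the oocyte, lay at 64.8 to 114 TPM (median 91.2) and at 12.9 to 81.7 TPM (median 19.6), a log2 fold change of -1.77 ± 0.27 (adjusted p = 5.1e-05). Cdk1, the kinase partner of these cyclins, averaged 40.2 ± 6.61 TPM (SD, n = 11) in controls and 13.9 ± 9.03 TPM (SD, n = 10) in PFNA libraries, so its log2 fold change was -1.63 ± 0.21 (limma adjusted p = 1.3e-05).

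All 6 mitotic kinases fell. Plk1, a kinase of centrosome maturation and mitotic exit, had 42.5 to 60.7 TPM in controls (median 50.8) and 7.22 to 42.5 TPM with PFNA (median 10.2), and 10 of 10 PFNA libraries were below the lowest control. Aurkb, the kinase of the chromosomal passenger complex that corrects faulty attachments of chromosomes, had 49.4 to 84.1 TPM (median 63.2) and 6.45 to 55.0 TPM (median 13.0). Aurka, the kinase of spindle poles, had 14.7 to 28.8 TPM (median 23.7) and 2.40 to 20.7 TPM (median 5.13). Log2 fold changes were -1.92 ± 0.23 for Plk1, -2.005 ± 0.30 for Aurkb and -1.86 ± 0.25 for Aurka (limma adjusted p = 8.3e-06, 5.3e-05 and 1.6e-05). The checkpoint kinases Bub1, Bub1b and Ttk, which delay anaphase until chromosomes are attached, had log2 fold changes of -1.76, -1.85 and -1.36.

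Birc5, the survivin subunit of the same passenger complex, had 34.7 to 52.0 TPM in controls and 4.81 to 32.9 TPM with PFNA, without overlap (medians 41.3 and 8.67). Its log2 fold change was -1.93 ± 0.26 (limma adjusted p = 1.7e-05), and that of Cdca8, the borealin subunit, was -1.84.

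Ube2c, the ubiquitin-conjugating enzyme of the anaphase-promoting complex, had 52.8 to 93.5 TPM in controls (median 81.0) and 6.40 to 49.1 TPM with PFNA (median 16.5). Its groups did not overlap, and its log2 fold change of -2.11 ± 0.25 was the largest fall among the members (limma adjusted p = 7.1e-06). Cdc20, the activator of that complex in early mitosis, had the highest mean level of the members in controls, 146 ± 16.3 TPM (SD, n = 11), and 57.2 ± 36.9 TPM (SD, n = 10) with PFNA.

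Genes of centromeres and kinetochores fell over a wider range. Cenpa, the histone H3 variant that marks centromeres, had 33.5 to 59.5 TPM in controls (median 48.9) and 4.82 to 37.4 TPM with PFNA (median 8.50), a log2 fold change of -1.99 ± 0.28. Mad2l1, the checkpoint protein that inhibits Cdc20, had 29.8 to 48.0 TPM (median 39.8) and 10.9 to 35.2 TPM (median 16.9), a log2 fold change of -0.98 ± 0.16, which was the smallest fall of the group (limma adjusted p = 0.00011). Ndc80, the microtubule-binding subunit of the kinetochore, had 3.73 to 6.82 TPM in controls (median 5.16) and 0.834 to 5.03 TPM with PFNA (median 1.24), a log2 fold change of -1.29 ± 0.18. On log2(TPM + 1) the changes of genes at such low TPM are understated.

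Motor proteins and other microtubule proteins of the spindle held the smallest fall. Kif20b, a kinesin of cytokinesis, had 2.54 to 5.52 TPM in controls (median 4.02) and 0.959 to 3.89 TPM with PFNA (median 1.94), with 7 of 10 PFNA libraries below every control. Its log2 fold change was -0.81 ± 0.15 (limma adjusted p = 0.00049). Kif4, a chromokinesin, had 2.16 to 4.47 TPM in controls and 0.191 to 3.03 TPM with PFNA (medians 3.28 and 0.840), and its log2 fold change of -1.13 ± 0.17 became -1.80 with a pseudocount of 0.1 in place of 1. Kif20a, the kinesin of the central spindle, had 49.9 ± 6.47 TPM (SD, n = 11) and 20.4 ± 11.7 TPM (SD, n = 10). At the other end of the group was Prc1, which bundles microtubules of the central spindle, with 29.0 to 47.6 TPM in controls and 5.17 to 26.3 TPM with PFNA, without overlap.

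The remaining members mark dividing cells or act on chromosomes and on cytokinesis. Top2a, the topoisomerase that untangles sister DNA, had 63.8 to 146 TPM in controls (median 93.3) and 12.3 to 88.3 TPM with PFNA (median 17.7), a log2 fold change of -2.004 ± 0.30. Mki67, the Ki-67 protein used as a marker of proliferation, had 39.4 to 109 TPM (median 71.0) and 11.4 to 72.6 TPM (median 15.9), a log2 fold change of -1.78 ± 0.27. Cdca3, which takes part in the destruction of the mitosis inhibitor WEE1, had 71.3 to 143 TPM and 14.8 to 87.6 TPM, a log2 fold change of -1.88 ± 0.27. Racgap1, a subunit of the centralspindlin complex of cytokinesis, had 18.6 to 34.0 TPM and 3.09 to 23.3 TPM (medians 23.9 and 5.19), with 9 of 10 PFNA libraries below every control.

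Over the members, all 10 PFNA libraries lay below the lowest control for 5 genes (Birc5, Ccna2, Plk1, Prc1 and Ube2c), 9 libraries did for 18 genes, 8 for 13 genes and 7 for Kif20b. Of all genes tested, 0.788% had all 10 PFNA libraries below every control and 3.35% had at least 9. No PFNA library was above the highest control for any member. PFNA replicates 3 to 9 were below every control for each of the 37 members. PFNA replicate 1 was within the control range for 32 members and had the highest value of the PFNA group for all 37, while replicate 2 was within the range for 14 and came second for 36. With replicates 1 and 2 left out together, an alternative chosen after seeing the data, all 37 members were again called lower, with a median log2 fold change of -1.95. Leaving out replicates 1, 2 and 10 together gave 37 and -1.96.

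**Figure D2:**
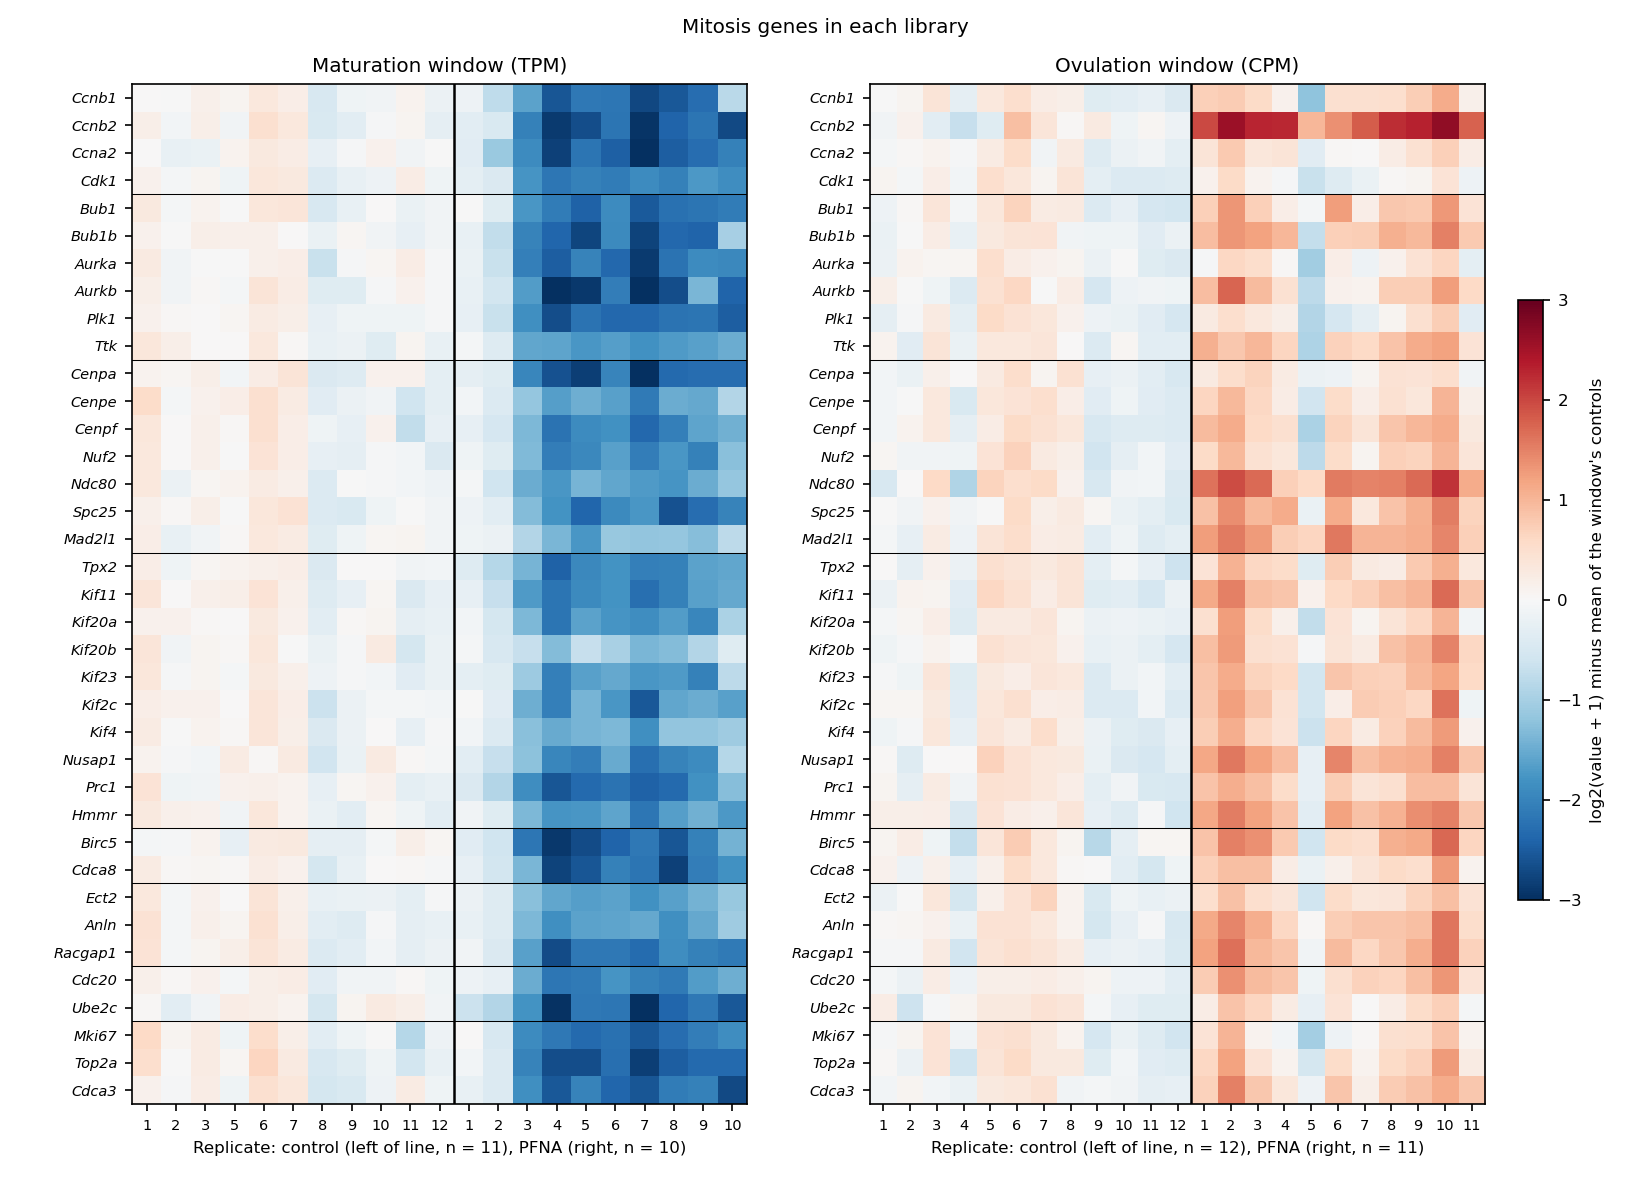
Deviation of log2(value + 1) from the control mean of the same window (colour, limited to 3 in either direction) for the 37 mitosis genes (rows, grouped by role) in each library (columns, numbered by replicate, controls left of the line) of the maturation window (left, TPM) and the ovulation window (right, CPM). In the maturation window PFNA replicates 3 to 10 are blue in nearly all rows and replicates 1 and 2 are pale, and in the ovulation window most PFNA columns are red except replicate 5.

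Other transcripts moved with the mitosis genes in these libraries, where 16.1% of all genes tested were called lower and 13.3% higher. Of the oocyte genes tested, 27 of 29 were lower with PFNA, and their summed level was 422 to 674 TPM in controls and 41.5 to 1005 TPM with PFNA (medians 582 and 63.7). Of the 16 granulosa cell genes tested, 9 were lower and 1 was higher, and their sum was a median of 5.73% of all TPM in controls and 3.56% with PFNA (45852 to 69319 TPM and 17393 to 52219 TPM). Inha alone had medians of 34768 and 21444 TPM, where the sums had medians of 57268 and 35591 TPM, so the sums mainly follow Inha. Of the 14 theca and stroma genes tested, 1 was lower and 2 were higher, with summed levels of 5593 to 7823 TPM and 4485 to 7616 TPM. Of the 7 endothelial genes tested 0 were called and 0 had an unadjusted p under 0.05 (limma), and 2 of 5 immune genes tested were higher, with sums of 8.96 to 89.8 TPM in controls and 40.5 to 212 TPM with PFNA for the immune list. No gene of these lists was at 0 in every library. The part of the granulosa, theca, immune and endothelial transcripts in the fall of the mitosis genes was not tested.

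For the oocyte, each library was given an oocyte level, the mean log2(TPM + 1) over 35 oocyte genes. It ranged from 2.83 to 3.40 in controls. In PFNA replicates 3 to 9 it ranged from 0.32 to 1.15, in replicates 1 and 2 it was 2.84 and 2.39, and in replicate 10 it was 3.84, above every control. Replicate 10 nevertheless had low mitosis transcripts: its member TPM summed to 395, and 36 of the 37 members (all but Kif20b) were below the lowest control. The share of all genes below the lowest control in this library was not counted.

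Within the PFNA group, replicate 10 had more of some mitosis transcripts than the 7 libraries of low oocyte level. It was above all of replicates 3 to 9 for 19 members, and the median ratio of its TPM to the median of those libraries was 1.39 over the 37 members. For Bub1b its 6.27 TPM compared with a median of 1.78 TPM in replicates 3 to 9 (ratio 3.53), for Ccnb1 51.5 with 17.9 TPM (2.88) and for Nusap1, a protein of spindle microtubules, 4.30 with 1.49 TPM (2.89). Other members were lower in it: Ube2c had 12.4 TPM against a median of 16.3 TPM (0.757), Ccnb2 6.65 against 8.48 TPM (0.785) and Cdca3 14.8 against 23.1 TPM (0.640). Being values of a single library, these ratios have no replicate check. The share of all genes for which replicate 10 was above replicates 3 to 9 was not counted. The count of 19 is therefore not shown to be particular to mitosis genes.

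**Figure D3:**
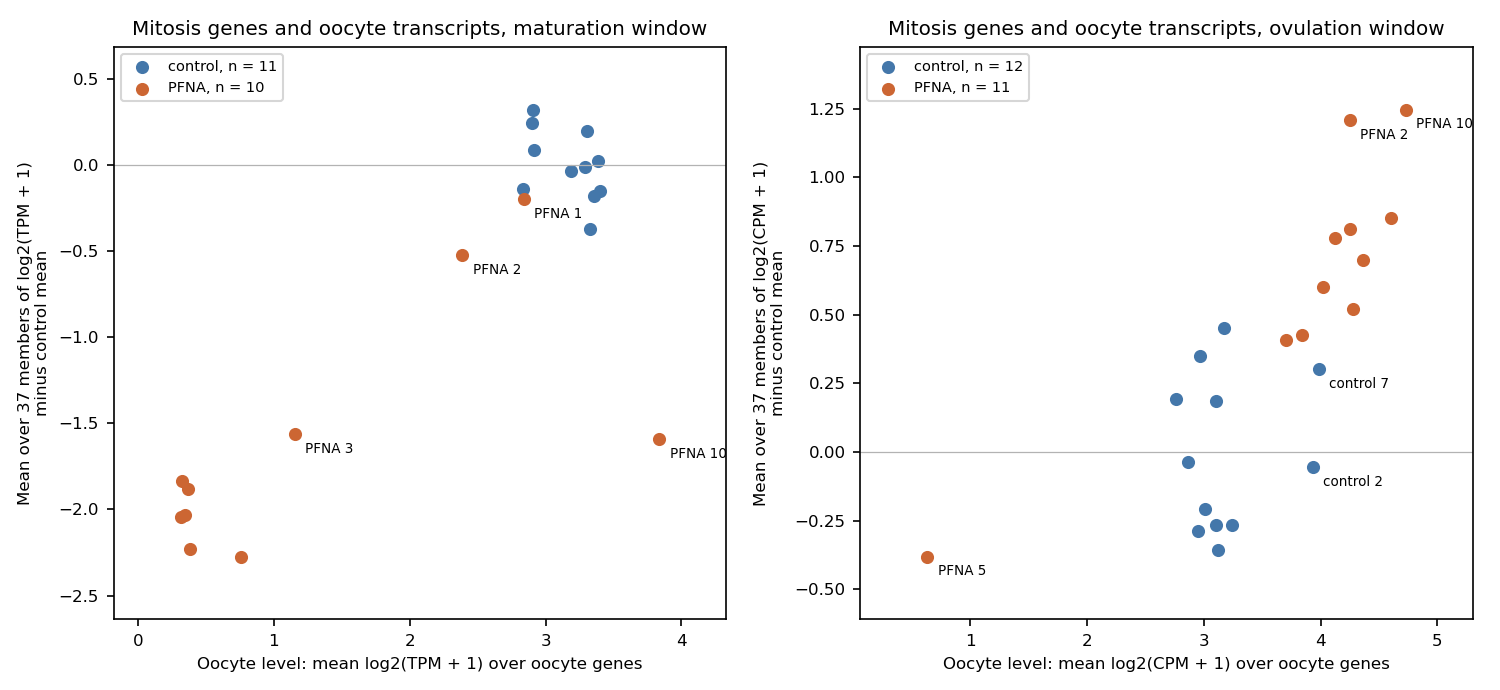
Mean over the 37 mitosis genes of log2(value + 1) minus the control mean (y axis) against the oocyte level of each library (x axis, mean log2(value + 1) over oocyte genes), in the maturation window (left, TPM) and the ovulation window (right, CPM), with controls in blue and PFNA libraries in orange. In the maturation window PFNA replicate 10 combines the highest oocyte level, 3.84, with a low mitosis value, and in the ovulation window PFNA replicate 5 is alone at an oocyte level of 0.63.

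With the oocyte level as a covariate in the maturation fit, 21 of the 37 members were still called lower, with a median log2 fold change of -0.96 and all 37 values below 0, while 4.08% of all genes tested were called lower in that fit. The members called in the fit of all libraries included Ccna2 (-1.31 ± 0.28, adjusted p = 0.012), Ube2c (-1.59 ± 0.35, adjusted p = 0.014), Prc1 (-0.96 ± 0.21, adjusted p = 0.014), Plk1 (-1.36 ± 0.31, adjusted p = 0.017) and Cdk1 (-1.08 ± 0.27, adjusted p = 0.024). Among the 16 that did not pass were Ccnb1 (-0.66 ± 0.23, adjusted p = 0.073), Mki67 (-1.01 ± 0.34, adjusted p = 0.064), Mad2l1 (-0.45 ± 0.19, adjusted p = 0.12) and Kif20b (-0.32 ± 0.18, adjusted p = 0.26), with adjusted p of 0.050 to 0.26 over the 16 (limma). The count depended on PFNA replicates 1, 2 and 10, in fits chosen after seeing the data. Without replicate 10 the same fit called 0 members and 0 had an unadjusted p under 0.05, with a median log2 fold change of -0.16, 34 of 37 values below 0, and Ube2c the lowest at -0.57 ± 0.36 (limma adjusted p = 0.84). In that fit 1 of all genes tested was called lower. Only PFNA replicate 1 (2.84) then reached the control oocyte levels of 2.83 to 3.40, so group and oocyte level were hard to tell apart there too. Without PFNA replicates 1 and 2 the fit called 36 members (median -1.67), and without replicates 1, 2 and 10 it called 5 (Aurka, Ccnb2, Cdca3, Cdk1 and Ttk, median -2.02, 30 at an unadjusted p under 0.05). Of all genes tested, 12.1% were called lower without replicates 1 and 2, and 0.658% without replicates 1, 2 and 10. In this last fit every PFNA oocyte level lay below every control, so the PFNA effect and the oocyte slope can hardly be told apart. Its standard errors ran from 0.48 for Plk1 to 1.15 for Aurkb, so the median of -2.02 is not a firmer result than -0.96.

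In the same fit the slope on the oocyte level was positive and called for 9 members, compared with 2.54% of all genes tested. These were Birc5, Bub1b, Ccnb1, Cdc20, Kif20a, Kif23, Mad2l1, Nusap1 and Prc1. Ccnb1 had the steepest slope, 0.59 ± 0.09 (SE) in log2(TPM + 1) per unit of oocyte level (adjusted p = 0.00044), followed by Bub1b with 0.57 ± 0.09 (adjusted p = 0.00040). Ube2c, Ccnb2 and Plk1 were not among them. The slopes rest on the PFNA libraries and differ between subsets of them. In the 11 controls alone 0 members were called and 36 of 37 slopes were below 0 (limma, median -0.43, 8 at an unadjusted p under 0.05, with 0 of all genes called), in the 10 PFNA libraries alone Ccnb1 was called, without PFNA replicates 1 and 2 the count was 7 with a median slope of 0.10, and without PFNA replicate 10 the count was 36 with a median of 0.67. The shares of all genes with a called slope are not given here for these subsets of the PFNA libraries. Because the PFNA libraries fall into separate clusters of oocyte level, no pooled correlation is given.

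In the ovulation window the direction was the opposite. With PFNA, 32 of the 37 mitosis genes rose and 0 fell (edgeR quasi-likelihood test, adjusted p from 2.9e-10 to 0.029 for those called). No member was lower at an unadjusted p under 0.05 either, and DESeq2 called 33 higher and 0 lower and limma 31 and 0. Of the 13441 genes tested, 38.0% were called higher and 35.2% lower. The median log2 fold change was 0.71 over the members and 0.04 over all genes tested, and the largest were those of Ccnb2, Ndc80 and Mad2l1. Their CPM summed to 817 to 1492 in controls (median 1045) and to 803 to 2502 with PFNA (median 1681).

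Ccnb2 had 4.13 to 14.5 CPM in controls (median 7.08) and 15.6 to 51.5 CPM with PFNA (median 37.3), and all 11 PFNA libraries lay above every control, as they did for 11.9% of all genes tested. Its log2 fold change of 2.17 ± 0.19 was the largest among the members (edgeR adjusted p = 2.9e-10). The other cyclins changed less. Ccnb1 had 27.7 to 54.0 CPM (median 38.9) and 16 to 83.5 CPM (median 54.4), a log2 fold change of 0.47 ± 0.18 (edgeR adjusted p = 0.019), with 6 PFNA libraries above every control and 1 below. Ccna2 had 31.2 to 60.6 CPM (median 39.8) and 32.4 to 71.7 CPM (median 52.2), a log2 fold change of 0.31 ± 0.12 (edgeR adjusted p = 0.022), a call lost without PFNA replicate 2 (0.25, adjusted p = 0.052). Cdk1 had 43.2 ± 9.93 CPM (SD, n = 12) in controls and 43.0 ± 10.4 CPM (SD, n = 11) with PFNA, and its log2 fold change of -0.0033 ± 0.13 did not pass (edgeR adjusted p = 0.98).

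**Figure D4:**
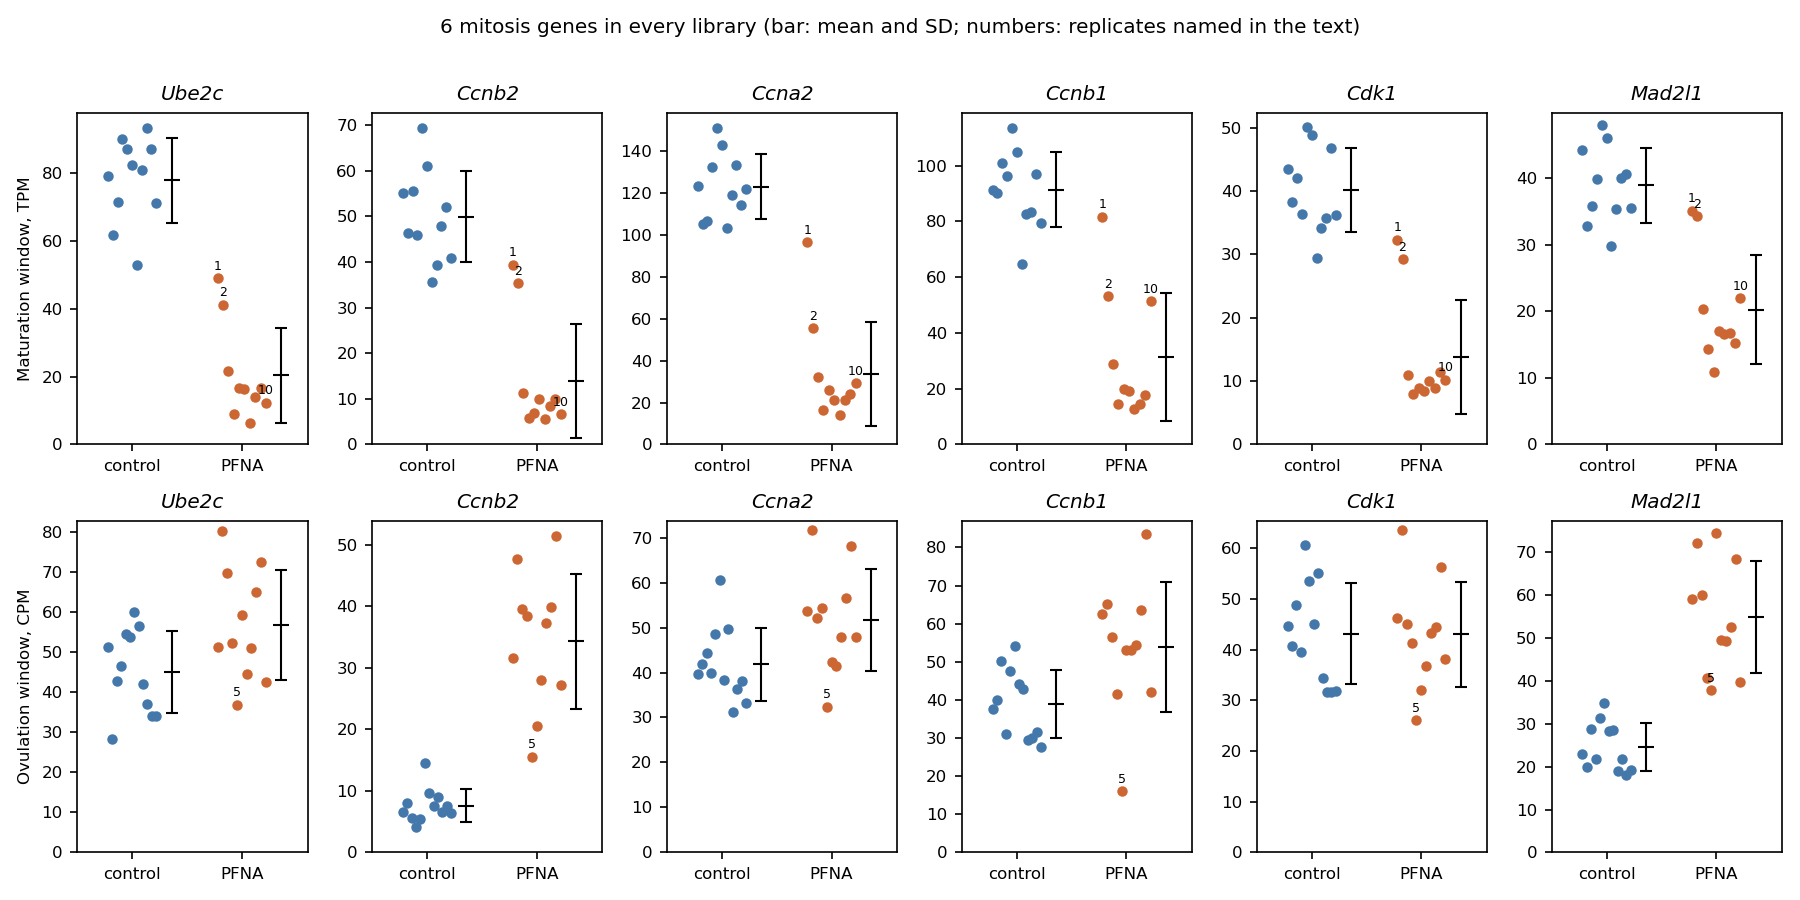
Values of Ube2c, Ccnb2, Ccna2, Ccnb1, Cdk1 and Mad2l1 in every library of the maturation window (top row, TPM) and the ovulation window (bottom row, CPM), controls in blue and PFNA in orange, with the group mean and SD as black bars and numbers at replicates that stand apart. In the bottom row all PFNA points of Ccnb2 and Mad2l1 lie above all control points, while those of Cdk1 overlap the controls.

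A Ccnb2 pseudogene bears on this gene. The maturation table lists Ccnb2-ps at 7.41 to 14.1 TPM in controls and 6.30 to 27.7 TPM with PFNA (log2 fold change 0.29 ± 0.18, limma adjusted p = 0.22), and Ccnb1-ps at 1.68 to 8.95 TPM and 0 to 3.60 TPM (-1.32 ± 0.30, adjusted p = 0.0027). The ovulation table has no row of either name, so its reads of these near-identical copies may be counted with the parent genes, and the levels of Ccnb1 and Ccnb2 are uncertain to that extent.

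Of the 7 genes of centromeres and kinetochores 6 rose, and Ndc80 and Mad2l1 had the largest rises among the members after Ccnb2. Ndc80 had 3.05 to 11.05 CPM in controls (median 6.46) and 10.5 to 33.3 CPM with PFNA (median 21.4), with 10 of 11 PFNA libraries above every control and a log2 fold change of 1.57 ± 0.21 (edgeR adjusted p = 3.3e-07). The share of all genes with at least 10 PFNA libraries above every control was not counted. Mad2l1 had 18.0 to 34.9 CPM (median 22.4) and 37.8 to 74.4 CPM (median 52.5), without overlap, a log2 fold change of 1.16 ± 0.13 (edgeR adjusted p = 1.9e-08). Cenpa, which had the largest fall of the kinetochore group in the maturation window, had 13.95 to 28.9 CPM and 17.4 to 31.9 CPM and did not pass (0.26 ± 0.13, edgeR adjusted p = 0.074).

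Of the mitotic kinases, Bub1, Bub1b, Ttk and Aurkb rose and Plk1 and Aurka did not pass. Bub1b had 28.1 to 47.5 CPM in controls and 21.4 to 104 CPM with PFNA (medians 32.8 and 71.2), with 10 PFNA libraries above every control and 1 below all of them. Aurkb had 6.28 to 15.0 CPM and 5.07 to 34.0 CPM, a log2 fold change of 0.78 ± 0.21 (edgeR adjusted p = 0.0021). For Plk1 the ranges were 19.95 to 43.4 CPM and 15.2 to 48.4 CPM, with a log2 fold change of 0.10 ± 0.17 (edgeR adjusted p = 0.62). For Aurka they were 14.9 to 29.2 CPM and 9.50 to 32.4 CPM, with 0.16 ± 0.15 (edgeR adjusted p = 0.37).

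All 10 spindle proteins, all 3 cytokinesis proteins and both passenger subunits rose. Among them, Nusap1 and Hmmr, a spindle pole protein, had log2 fold changes of 1.12 each, Kif20b had 0.78, Kif4 0.63 and Kif20a 0.46. Racgap1 had 20.9 to 44.4 CPM in controls and 29.2 to 101 CPM with PFNA (medians 30.7 and 62.4), with 10 PFNA libraries above every control and a log2 fold change of 0.99 ± 0.16 (edgeR adjusted p = 8.8e-06). Birc5 had 5.08 to 17.4 CPM and 6.14 to 34.8 CPM, a log2 fold change of 0.99 ± 0.22 (edgeR adjusted p = 0.00027).

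Cdc20 had 28.4 to 42.3 CPM in controls and 32.7 to 95.1 CPM with PFNA (medians 36.1 and 61.8), a log2 fold change of 0.81 ± 0.13 (edgeR adjusted p = 3.1e-06). Its partner Ube2c had 28.2 to 59.9 CPM and 36.9 to 80.0 CPM (medians 44.5 and 52.2), a log2 fold change of 0.33 ± 0.13 (edgeR adjusted p = 0.029). The Ube2c call was lost without PFNA replicate 2, 3 or 10 (adjusted p = 0.066, 0.055 and 0.057). Cdca3 rose by 0.80 ± 0.15 and Top2a by 0.52 ± 0.18 on the log2 scale. Mki67 had 63.9 to 133 CPM in controls and 46.9 to 195 CPM with PFNA, a log2 fold change of 0.26 ± 0.18 that did not pass (edgeR adjusted p = 0.19).

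PFNA replicate 5 of this window had the lowest value of the PFNA group for all 37 members. It was below the lowest control for 16 of them, among them Ccnb1 (16 CPM), Aurka (9.50 CPM) and Mki67 (46.9 CPM). For 5 members it was above the control median, with ratios to that median of 2.20 for Ccnb2, 1.69 for Mad2l1, 1.62 for Ndc80, 1.13 for Kif11 and 1.003 for Kif20b. Without it 34 members were called higher, Mki67 and Cenpa being the additions (0.34, adjusted p = 0.049, and 0.29, adjusted p = 0.039, edgeR). The counts without any other single library were 30 to 33. The shares of all genes that were lowest in replicate 5, or below every control there, were not counted. The 37 lowest values and the 16 below every control are therefore not shown to be particular to mitosis genes.

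Replicate 5 also had the lowest oocyte level of the window (0.63, mean log2(CPM + 1) over 33 oocyte genes), against 3.70 to 4.73 in the other PFNA libraries and 2.76 to 3.98 in controls. Among all genes tested in this window, 38.0% were called higher and 35.2% lower. Of the oocyte genes tested, 22 of 33 were higher with PFNA, with summed CPM of 320 to 869 in controls and 64.3 to 1297 with PFNA. Of the granulosa cell genes 11 were higher and 4 lower of 16, with sums of 16383 to 22842 CPM and 16418 to 23664 CPM. Theca and stroma genes were higher for 9 and lower for 2 of 14 (2881 to 5148 CPM and 3097 to 4857 CPM), and endothelial genes were higher for 7 of 10 (41.9 to 180 CPM and 43.2 to 491 CPM). Immune genes were higher for 5 of the 11 tested, with sums of 3.21 to 149 CPM in controls and 159 to 722 CPM with PFNA. The latter sums rest on Cd3e, a gene of the T cell receptor complex, which had 0 to 0.507 CPM in controls and 153 to 656 CPM with PFNA. Without Cd3e, singled out after its values were seen, the immune sums were 2.99 to 148 CPM and 5.52 to 180 CPM (medians 35.5 and 78.9) and overlapped. No gene of these lists was at 0 in every library, and the part of the granulosa, theca, endothelial and immune transcripts in the rise of the mitosis genes was not tested.

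With the oocyte level as a covariate, 20 of the 37 members were called higher in the ovulation window, with a median log2 fold change of 0.35, where 34.6% of all genes tested were called higher. Ccnb2 (1.86 ± 0.17, adjusted p = 4.1e-10), Ndc80 (1.31 ± 0.20, adjusted p = 3.1e-06) and Mad2l1 (1.04 ± 0.14, adjusted p = 2.7e-07) were among those called, while Ccnb1 had 0.05 ± 0.13 (adjusted p = 0.76, edgeR). Without PFNA replicate 5 the fit called 13 members, with a median of 0.41, among them Ccnb2 (1.63 ± 0.31), Ndc80 (1.12 ± 0.36) and Mad2l1 (1.12 ± 0.25), where 23.2% of all genes were called higher. The slope on the oocyte level was positive and called for 25 members, against 4.98% of all genes tested, with a median of 0.32 over the 37 members. The smallest p belonged to Bub1b, with a slope of 0.47 ± 0.06 in log2(CPM + 1) per unit (adjusted p = 2.5e-06), and Ccnb1, with 0.46 ± 0.07 (adjusted p = 0.00012, limma). These calls rest on PFNA replicate 5. Without it 0 members were called (limma, median slope 0.32, lowest adjusted p = 0.34, 8 at an unadjusted p under 0.05, with 56 of all genes called), and in the 12 controls alone 0 were called and 0 had an unadjusted p under 0.05 (median 0.11). In the 11 PFNA libraries alone, replicate 5 included, the count was 25, and the share of all genes is not given here.

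The PFNA effect differed between windows for all 37 members, each of them higher in the ovulation window (limma, adjusted p from 3.8e-13 to 1.5e-06). A higher effect in the ovulation window was called for 32.0% of the 11198 genes tested in both tables. A difference in either direction was called for 7577 genes, 3586 higher and 3991 lower. On log2(CPM + 1) minus log2(TPM + 1) the differences ranged from 1.52 for Kif20b to 4.10 for Ccnb2, with a median of 2.24 compared with -0.04 over all genes. The count was 37 with the oocyte level as covariate in both fits (median 1.39), which fell to 9 (median 0.62) when maturation PFNA replicate 10 and ovulation PFNA replicate 5 were left out of those fits, an alternative chosen after seeing the data. The 9 were Bub1b, Ccnb2, Hmmr, Kif11, Mad2l1, Ndc80, Nusap1, Prc1 and Tpx2. In that fit 3791 of all genes tested were called, so the 9 are not shown to exceed the share over all genes. The share over all genes is not given here for the covariate fit of all libraries. Without the covariate the count of members was 37 with maturation PFNA replicates 1, 2 and 10 and ovulation PFNA replicate 5 left out together (median 2.75). Because the windows were quantified in different units and with different gene models, levels were not compared between them.

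The order of the members also differed, with maturation ranks taken on log2(TPM + 1), where falls at low TPM are understated. Ube2c and Ccna2 were among the 3 largest falls in the maturation window yet had small rises in the ovulation window (0.33 and 0.31), whereas Mad2l1, with the second smallest fall (-0.98), had the third largest rise (1.16). Ccnb2 was large in both, with -2.07 and 2.17, within the limit that its pseudogene sets. Cdk1 and Plk1, with falls of -1.63 and -1.92, had ovulation values of -0.0033 and 0.10.

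A further list of 69 genes of mitosis that are not members gave 65 lower and 0 higher of 67 tested (limma, with 0 higher at an unadjusted p under 0.05) in the maturation window, with a median log2 fold change of -1.32. The 2 that did not pass were Cdc25a, a phosphatase that activates cyclin-dependent kinases, and Cdc27, a subunit of the anaphase-promoting complex. In the ovulation window 46 of 68 tested were higher and 9 were lower, with a median of 0.68, compared with 38.0% and 35.2% of all genes. Zwilch, of the kinetochore RZZ complex, rose most (2.43), and Cenpm, a kinetochore subunit, fell most (-1.89), followed by Cks2, a small subunit of cyclin-dependent kinases (-1.18). These 5 genes were named after their values were seen.

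Factors that control mitosis genes were given by a list of 25. In the maturation window 11 were lower and 1 was higher, against 16.1% and 13.3% of all genes. Foxm1, the factor that activates G2 and M genes, had 34.7 to 49.7 TPM in controls and 6.53 to 33.1 TPM with PFNA, without overlap, a log2 fold change of -1.63 ± 0.21 (limma adjusted p = 1.6e-05). Mybl2, which joins it at the same promoters, had 5.34 to 7.61 TPM and 0.233 to 5.25 TPM, also without overlap (-1.46 ± 0.20, adjusted p = 2.0e-05). E2f8, a repressor of the E2F family that is itself made in proliferating cells, had 7.502 to 17.1 TPM and 0.853 to 9.71 TPM (-1.95 ± 0.25).

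In the ovulation window 9 of the 25 factors were higher (36.0%) and 6 lower (24.0%), shares that were no larger than the 38.0% and 35.2% of all genes. Foxm1 had 20.7 to 39.7 CPM and 22.7 to 63.8 CPM (0.51 ± 0.14, edgeR adjusted p = 0.0020). Mybl2 had 4.88 to 17.0 CPM and 2.71 to 29.8 CPM (0.79 ± 0.27, adjusted p = 0.012), a call that was lost with limma on log2(CPM + 1) (adjusted p = 0.050). E2f8 rose by 0.62 ± 0.23 (adjusted p = 0.019), a call lost without PFNA replicate 2 or 10 (adjusted p = 0.054 and 0.056). E2f4, the main E2F of the DREAM complex, went the other way, from 64.8 to 79.7 CPM in controls to 39.7 to 56.0 CPM with PFNA (-0.63 ± 0.06, edgeR adjusted p = 4.1e-10). So did Tfdp1, its dimer partner, from 101 to 132 CPM to 62.8 to 91.2 CPM (-0.65 ± 0.06, adjusted p = 1.6e-10).

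The genes of DNA replication and of the step from G1 to S, a list of 44, fell together with the mitosis genes in the maturation window, with 41 of 41 tested called lower and a median of -1.07. Cdc45 and Mcm2, subunits of the replicative helicase, had log2 fold changes of -1.50 ± 0.17 and -1.10 ± 0.13. In the ovulation window 28 were higher and 5 lower of 44, with a median of 0.52, compared with 38.0% and 35.2% of all genes. Cdc45 and Mcm2 rose there by 0.77 ± 0.19 and 0.57 ± 0.16, and Pola1, the catalytic subunit of DNA polymerase alpha, had 6.40 to 13.6 CPM in controls and 21.1 to 47.7 CPM with PFNA (1.51 ± 0.13). Ccne1, the cyclin of the G1 to S step, fell from 4.13 to 8.72 CPM to 0.929 to 3.35 CPM (-1.69 ± 0.20). It was named after its values were seen.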

How the data were processed

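RNA sequencing of mouse ovarian follicles gave 21 libraries of the maturation window and 23 of the ovulation window, with poly-A RNA selected on beads and cDNA primed with random hexamers, per the labels' protocols. The submitters' processing notes name Partek, Bowtie2 and HISAT2, and versions, roles and gene models are not given in the sources used here. The maturation values that the authors deposited are TPM: each library sums to 1000000 and 82.3% of values are not whole within 0.001, although the table is named as raw counts. The ovulation values that the authors deposited are estimated counts (14.9% not whole), which were rounded. A count test was therefore used for the ovulation window only.

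Groups come from the labels. The column of maturation control replicate 6 differs from its title by a letter and was taken as that library. The ovulation window was tested with edgeR 4.0.16 (quasi-likelihood, filterByExpr, TMM, robust) and the maturation window with limma 3.58.1 (trend, robust) on log2(TPM + 1), keeping genes whose mean reached 1 TPM, in R 4.3.3. The difference between windows is the limma effect on log2(TMM CPM + 1) minus that on log2(TPM + 1), tested with degrees of freedom after Satterthwaite. Benjamini-Hochberg adjustment ran over all genes tested, and an adjusted p under 0.05 was called. The fits were tested on simulated data made from each window's means: of genes changed 2-fold, 98.5% were recovered in the ovulation window (13725 genes) and 94.0% in the maturation window (13729 genes), and of genes changed 1.5-fold, 44.8% and 43.3%. The simulation gave all genes the same dispersion, had no libraries that stand apart and assumed a depth for the TPM. These shares are therefore not rates for the measured data.

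The oocyte level is the mean log2(value + 1) over an oocyte list, and slopes come from a limma fit of group and oocyte level. Alternatives were other normalizations, filters, pseudocounts, DESeq2 1.42.0, a replicate block, the oocyte covariate and leaving out libraries. The members, the lists and the rules were chosen with earlier results of these data known. By rule, 20 members were given in full: the member of highest mean TPM in maturation controls of each role, the 3 largest and 3 smallest absolute log2 fold changes of each window, and Mki67, Top2a, Cdk1 and Ccnb1. From the regulator and replication lists the 2 smallest p of each window were named, with Foxm1 and Mybl2. A gene of the replication list that this rule names is not reported here. Other genes were named after their values were seen.

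The build GRCm38 is taken from gene starts of the maturation table, 99.3% of which are those of GENCODE M21. Of the ovulation table's starts 37.2% are, and they were not used. No 2 libraries of a group were identical.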

Additional observations from a re-analysis of the deposited data

Results flagged for a closer look

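The difference of the PFNA effect between windows was past the threshold for 37 members (limma). For the members given in full it was 4.10 for Ccnb2, 2.80 for Birc5, 2.76 for Ndc80, 2.68 for Racgap1, 2.63 for Aurkb, 2.58 for Cdca3, 2.49 for Top2a, 2.43 for Ube2c, 2.35 for Ccna2, 2.28 for Cdc20 and 2.24 for Cenpa, on the log2 scale, ovulation minus maturation. It was 2.17 for Ccnb1, 2.11 for Mad2l1, 1.99 for Mki67, 1.98 for Plk1, 1.96 for Aurka, 1.77 for Kif20a, 1.69 for Kif4, 1.62 for Cdk1 and 1.52 for Kif20b. In each of these members the effect was below 0 in the maturation window.

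Among the 10 PFNA libraries of the maturation window, a library lay far from the others by the ratio of its gap to the group's range for 2 of 40 values searched, where chance flags about 1 in 20. Ccna2 had 96.5 TPM in PFNA replicate 1, and the next highest library had 55.6 TPM. The summed oocyte transcripts were 1005 TPM in PFNA replicate 10, and the next highest library had 424 TPM.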

How the results depend on the processing

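In the maturation window all 37 members stayed called lower without any single library (37 to 37) and with other pseudocounts, normalization or no filter, while a minimum of 5 TPM left 33 to test, all called. With the oocyte level as covariate 21 were called, and over all genes 1228 in place of 4030, with E2f4 at 0.079. In the ovulation window 20 were called with that covariate, Aurka, Mki67 and Plk1 being at -0.16, -0.073 and -0.19, and 30 to 34 without single libraries. With the covariate and without the libraries that set the oocyte slope, alternatives chosen after seeing the data, counts were 0 in the maturation window without PFNA replicate 10 (Bub1 at 0.032, Mad2l1 at 0.0053, Spc25 at 0.067), 36 without replicates 1 and 2 (E2f4 at 0.34) and 5 without all 3 (E2f4 at 1.06). They were 13 in the ovulation window without PFNA replicate 5 (Aurka -0.13, Mki67 -0.062, Mybl2 -0.37, Plk1 -0.35) and 9 in the difference without both replicate 10 and replicate 5 (Mki67 -0.052, Mybl2 -0.038, Plk1 -0.13). Over all genes, 1, 1663 and 90 were called lower in those maturation fits, 3134 higher in that ovulation fit and 3791 in that difference. Cdk1, close to 0, was at 0.020 with median-ratio size factors and with DESeq2, and at -0.075 to 0.051 without single libraries. Maturation slopes were called for 9 members, for 0 in controls alone, 1 in PFNA libraries alone and 36 without PFNA replicate 10. In controls alone the slopes were -0.48 for Birc5, -0.12 for Bub1b, -0.53 for Ccnb1, -0.43 for Cdc20, -0.17 for Kif20a, -0.30 for Kif23, -0.37 for Mad2l1, -0.10 for Nusap1 and -0.11 for Prc1. Ovulation slopes were called for 25, for 0 in controls alone, 0 without PFNA replicate 5, 22 without PFNA replicate 10 and 0 without both. Shares of all genes are not given for slopes in PFNA libraries alone or without replicate 10. The cause of these changes was not tested. Same-numbered libraries did not vary together (9 maturation pairs, r of deviations -0.14 to 0.17, median -0.03; 11 ovulation pairs, -0.19 to 0.07, median -0.06). With a replicate block 37 members were called lower in the maturation window, 26 higher in the ovulation window and 37 in the difference, and slopes for 0 and 10. The depth of the TPM is unknown, and in the simulated ovulation data changes of 1.5-fold were often missed.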
